A study of Mus musculus with 22 samples.

Results

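The 47 genes described here encode collagens, laminins and other proteins of the extracellular matrix, with the proteases that cut them and the inhibitors of those proteases. They were chosen by gene name from the 6054 genes of a count table, as every symbol of the collagen, laminin, nidogen, fibrillin, fibulin, Adamts, Mmp and Timp families and of Mfap2, Mfap4 and Mfap5, together with Dcn, Lum, Bgn, Fn1, Sparc, Gsn and Serpinh1. The naming rule itself uses no measured value. The table covers quadriceps, a thigh muscle, from mice of the inbred strain C57Bl/6. All mice were fasted overnight and received vehicle or leucine by oral gavage 30 minutes before the muscle was taken, so the vehicle mice were fasted too. Transcripts were measured by RNA sequencing, and translation by ribosome profiling, which sequences footprints, the stretches of mRNA covered by a ribosome and left over after nuclease digestion. Each assay had 5 vehicle and 6 leucine libraries, with total counts from 15016267 to 30944085 in RNA and from 21697096 to 48996109 in footprints. The labels do not say whether each library came from its own mouse, and p-values therefore reflect library-to-library spread, which may be technical. The column names carry 2 prefixes that divide the libraries into a set A (3 vehicle and 3 leucine libraries per assay) and a set B (2 vehicle and 3 leucine libraries per assay). Skeletal muscle fibre markers were abundant in every library, with summed levels of 354976 to 514284 CPM (counts scaled to a common library total) in vehicle RNA over 12 of 12 listed genes.

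The extracellular matrix of muscle surrounds each fibre as a basement membrane and fills the space between fibres as a fibrillar network. Fibrillar collagens I, III and V assemble from triple helices into fibrils, whose diameter and spacing are adjusted by small leucine-rich proteoglycans. Laminins, collagen IV and nidogens form the basement membrane, and collagen VI links it to the fibrils. Most of these proteins are made by fibroblasts and vessel cells between the muscle fibres, are translated on ribosomes bound to the endoplasmic reticulum and are secreted. Whole muscle was used here, so fewer cells of a type and less RNA per cell cannot be told apart.

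The coding sequence of a collagen chain carries a codon for glycine, GGN, followed by 2 other codons, over and over along the triple helix. The first 30 codons of the longest uninterrupted repeat are shown for 3 chains, 5′ to 3′ as mRNA sense DNA, because Col1a1 and Col3a1 had the highest and the lowest footprint level relative to RNA among the collagens and Col4a1 is a basement membrane chain. They come from GENCODE vM21 transcripts matched by RefSeq accession on the GRCm38 build. Capitals mark the glycine codon that starts each unit of the repeat. Glycine codons elsewhere in a unit, such as gga and ggt near the start of the Col3a1 run, are in lower case.
Col1a1 (chromosome 11, + strand, codons 168 to 197): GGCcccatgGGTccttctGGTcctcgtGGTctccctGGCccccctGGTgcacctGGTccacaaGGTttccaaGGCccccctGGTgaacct
Col3a1 (chromosome 1, + strand, codons 164 to 193): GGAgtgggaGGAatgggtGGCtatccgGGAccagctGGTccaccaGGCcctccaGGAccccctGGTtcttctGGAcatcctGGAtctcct
Col4a1 (chromosome 8, - strand, codons 43 to 72): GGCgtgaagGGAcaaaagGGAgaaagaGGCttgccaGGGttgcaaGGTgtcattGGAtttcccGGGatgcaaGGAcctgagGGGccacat
The repeat ran without a break over 338 glycine codons in Col1a1 and 344 in Col3a1, but over 40 in Col4a1, whose helix is interrupted. GGN made up 26.8% of codons in Col1a1, 28.3% in Col3a1 and 28.6% in Col4a1. Glycine codons were thus about as frequent in all 3 chains.

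Collagen IV chains α1 and α2 are encoded by Col4a1 and Col4a2, which lie head to head. Their promoter windows, 250 bases before to 50 after the annotated starts in RefSeq on GRCm38.p6, are shown because the ratio of the pair was followed through both assays. Capitals mark the 78 bases that both windows share, read on opposite strands.
Col4a1 (chr8:11312777-11313076, - strand): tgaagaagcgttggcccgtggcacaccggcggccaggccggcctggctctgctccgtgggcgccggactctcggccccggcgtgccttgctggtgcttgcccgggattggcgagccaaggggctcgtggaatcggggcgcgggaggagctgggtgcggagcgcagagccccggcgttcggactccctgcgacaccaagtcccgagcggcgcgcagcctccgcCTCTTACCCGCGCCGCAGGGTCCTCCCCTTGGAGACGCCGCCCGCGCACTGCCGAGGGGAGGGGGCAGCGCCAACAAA
Col4a2 (chr8:11312555-11312854, + strand): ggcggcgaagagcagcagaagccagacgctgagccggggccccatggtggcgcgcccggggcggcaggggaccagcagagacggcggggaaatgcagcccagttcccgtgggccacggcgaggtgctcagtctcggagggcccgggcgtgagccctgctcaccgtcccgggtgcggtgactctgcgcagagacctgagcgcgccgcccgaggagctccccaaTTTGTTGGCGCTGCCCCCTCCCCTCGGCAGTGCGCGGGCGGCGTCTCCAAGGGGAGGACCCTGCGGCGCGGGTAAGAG

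The matrix genes held a larger share of footprints than of RNA. In vehicle muscle they took 0.772% ± 0.137 of RNA counts (SD, n = 5) and 2.66% ± 0.481 of footprint counts (SD, n = 5), and the ranges, 0.600% to 0.921% and 2.05% to 3.33%, did not overlap. In leucine muscle the shares were 0.846% ± 0.200 of RNA counts and 2.08% ± 0.214 of footprint counts (SD, n = 6 each). Gene by gene, 41 of 47 had more footprints relative to RNA than the typical gene of the table in vehicle muscle and 1, Adamts9, had fewer, at an adjusted p under 0.05 in edgeR's quasi-likelihood test. Across all 6054 genes 37.2% were called higher and 38% lower. The median log2 footprint level relative to RNA was 1.47 over the 47 genes and -0.0010 over all genes. The 6 leucine libraries of each assay, none of them among the vehicle libraries, gave 41 higher and 2 lower (Adamts9 and Adamts5), with a median of 1.39, where 37.7% of all genes were called higher and 39.4% lower.

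**Figure D1:**
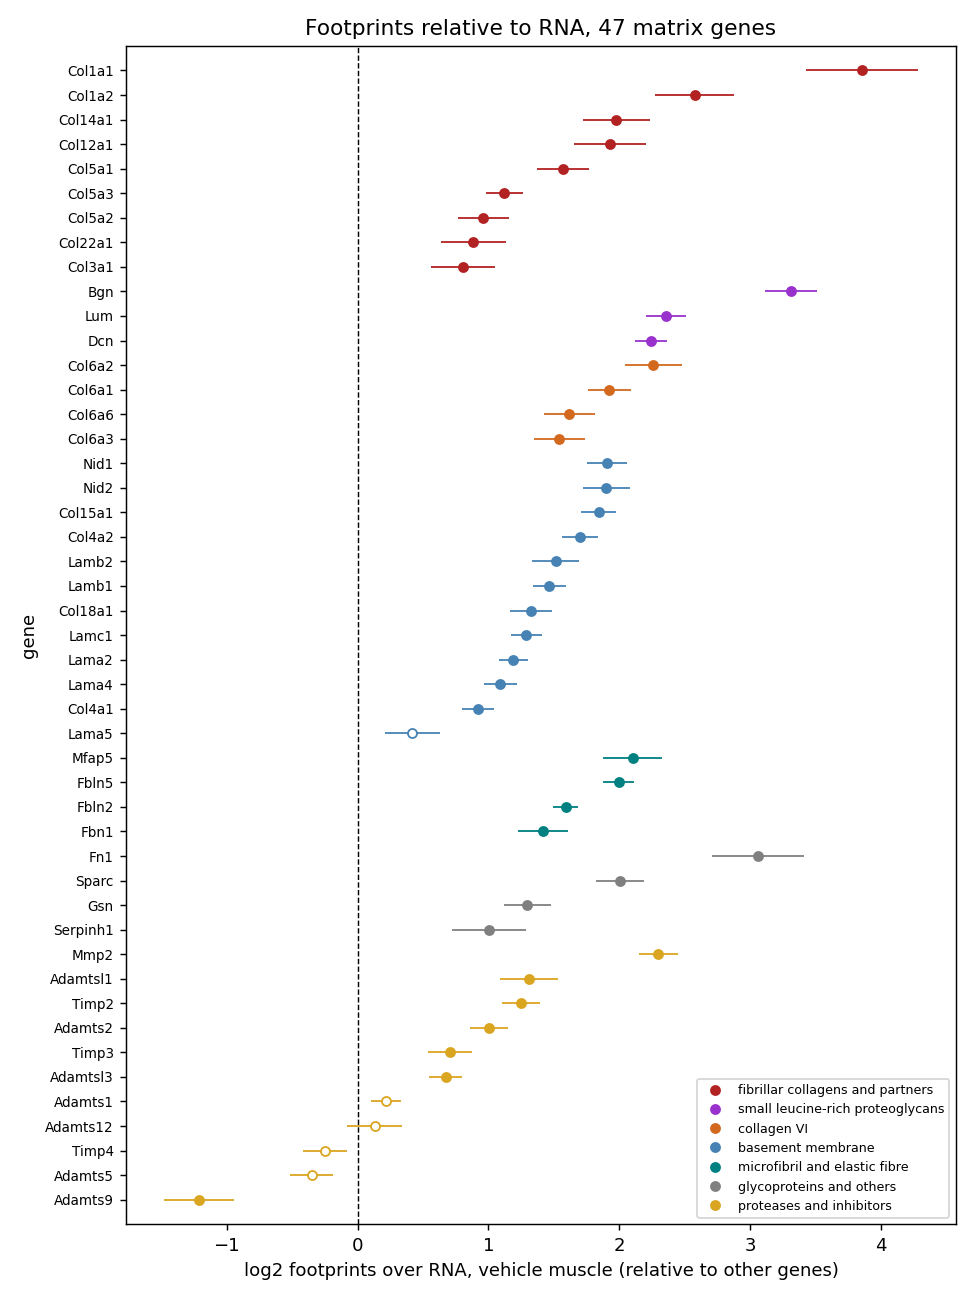
Log2 footprint level relative to RNA in vehicle muscle (horizontal axis) for each of the 47 matrix genes (rows), coloured by role. Points are edgeR estimates with standard errors, filled where the adjusted p is under 0.05, and 0 (dashed) is the level of the typical gene. Every group apart from the proteases and inhibitors lies to the right of 0, from Lama5 at 0.42 to Col1a1 at 3.85.

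Col1a1 had the highest ratio of the members. Bgn and Fbln5 passed it once the coding share of the authors' transcript was removed, and with another transcript length this order may differ. Col1a1, the α1 chain of type I collagen, had 356 ± 212 CPM (SD, n = 5) in vehicle RNA and 4500.1 ± 1753 CPM (SD, n = 5) in vehicle footprints, a log2 ratio of 3.85 ± 0.43 (SE, adjusted p = 7.31e-06), or 14.4-fold. Col1a2, its partner chain, reached 2.58 ± 0.30. Col3a1, the chain of type III collagen, had more RNA than either, at 850.2 ± 326 CPM (SD, n = 5), and a log2 ratio of 0.81 ± 0.25 (adjusted p = 0.01), the lowest among the 9 fibrillar collagens and partners. Its glycine repeat is about as long as that of Col1a1, and a link between the repeat and the ratio was not tested. All 9 were called higher, among them Col5a1 (1.57 ± 0.20), Col5a2 (0.96 ± 0.19) and Col5a3 (1.12 ± 0.14) of the fibril-nucleating type V collagen, Col12a1 (1.93 ± 0.27) and Col14a1 (1.97 ± 0.26), which lie on fibril surfaces, and Col22a1 (0.88 ± 0.25), a collagen of the muscle-tendon junction.

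The small leucine-rich proteoglycans, which bind collagen fibrils, were all called higher: Bgn (biglycan) at 3.31 ± 0.20, Lum (lumican) at 2.35 ± 0.15 and Dcn (decorin) at 2.24 ± 0.12 on the log2 scale. Fn1, which encodes the adhesive glycoprotein fibronectin, stood at 3.06 ± 0.35. Sparc, a collagen-binding glycoprotein, reached 2.01 ± 0.19, Gsn, the actin-severing gelsolin that is also secreted into plasma, 1.30 ± 0.18, and Serpinh1, the collagen chaperone of the endoplasmic reticulum, 1.0 ± 0.28. The 4 collagen VI chains lay between 1.54 ± 0.19 for Col6a3 and 2.26 ± 0.22 for Col6a2. The 4 microfibril and elastic-fibre genes lay between 1.42 ± 0.19 for Fbn1 (fibrillin 1) and 2.10 ± 0.22 for Mfap5, with Fbln2 and Fbln5 (fibulins) inside that range.

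Of the 12 basement membrane genes 11 were called higher. Nid1 and Nid2, the nidogens that bridge laminin and collagen IV, headed them at 1.90 ± 0.15 and 1.90 ± 0.18. Among laminin chains the values ran from 1.09 ± 0.13 for Lama4 to 1.51 ± 0.18 for Lamb2, and Lama5 did not pass the test (0.42 ± 0.21, adjusted p = 0.0865). The laminin α2 chain gene Lama2, whose loss causes a muscular dystrophy, stood at 1.19 ± 0.11. The proteases and inhibitors were the mixed group, with 6 of 11 called higher. This group was formed by gene name. It includes Adamtsl1 (1.31) and Adamtsl3 (0.67), both called higher, which encode ADAMTS-like proteins rather than proteases or inhibitors. Mmp2, a gelatinase, reached 2.30 ± 0.15 and Timp2, an inhibitor that also takes part in activating it, 1.25 ± 0.15. The procollagen N-proteinase gene Adamts2 stood at 1.01 ± 0.15, whereas Adamts9, a protease that cuts versican, stood at -1.21 ± 0.27 (adjusted p = 0.00135), with 23.4 ± 8.26 CPM (SD, n = 5) in RNA and 8.86 ± 3.20 CPM (SD, n = 5) in footprints. Adamts1, Adamts5, Adamts12 and Timp4 did not pass the test, with values from -0.35 to 0.22. Timp3 and Timp4 each lie within an intron of a synapsin gene on the opposite strand, and whether counting used strand is not given, so their counts are less certain.

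Footprints fall on coding sequence while RNA reads fall on the whole transcript, so a gene with a large coding share gains in this ratio. The coding share of the transcript was 77.2% at the median of the 46 members with a matched length and 54.7% at the median of all genes. With the log2 coding share taken off each gene's ratio, the members' median lay 0.91 above that of all genes, in place of 1.47, and 42 of 46 members lay above the all-gene median, with Adamts5 now above it and Lama5 and Adamts12 now below. Under this reckoning Bgn stood at 3.45, Fbln5 at 3.16 and Col1a1 at 2.99 above it, whereas Col3a1 stood at 0.18 and Lama5 at -0.52. The order of the members changed under it, and Timp3, whose transcript was 13.5% coding, moved to 2.62. The share divided a GENCODE coding length by the authors' transcript length. Some matched GENCODE transcripts were longer than the authors', as for Col1a1 (5930 bases against 4698), Adamts12 (8579 against 6234) and Timp4 (5496 against 1416). Others were shorter, as for Col14a1 (5679 against 6448). The part of this in the adjusted order and count was not tested.

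Partner chains were compared per base, as RNA per base of transcript and footprints per base of coding sequence. The pairs Lamb2 over Lamb1 and Nid1 over Lamc1, which are not partner chains of 1 protein, were compared in the same way. Collagen I holds 2 α1 chains for each α2 chain. The Col1a1 to Col1a2 ratio was 0.588 ± 0.105 (range 0.496 to 0.769, SD, n = 5) in vehicle RNA and 1.28 ± 0.162 (range 1.10 to 1.49, SD, n = 5) in vehicle footprints. The ranges did not overlap, and the footprint ratio in leucine muscle, 1.30 ± 0.158 (range 1.09 to 1.48, SD, n = 6), lay in the same range as that in vehicle. Within footprints the ratio was lower in set A (1.09 to 1.28) than in set B (1.38 to 1.49), and both sets lay above every vehicle RNA library. The authors' annotation gives Col1a1 a transcript of 4698 bases, whereas the matched GENCODE transcript has 5930 bases, and the part of this difference in the ratio was not tested.

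For collagen IV, also built with 2 α1 chains for each α2 chain, the ratio moved the other way. Col4a1 over Col4a2 was 1.91 ± 0.146 (range 1.74 to 2.14, SD, n = 5) in vehicle RNA and 1.17 ± 0.118 (range 1.04 to 1.29, SD, n = 5) in vehicle footprints. For collagen VI, Col6a1 over Col6a2 was 1.45 ± 0.237 (range 1.20 to 1.77, SD, n = 5) in RNA and 1.19 ± 0.0776 (range 1.10 to 1.27, SD, n = 5) in footprints, which overlapped. Col6a3 over Col6a1 was 0.682 ± 0.0947 (range 0.558 to 0.786, SD, n = 5) in RNA and 0.456 ± 0.0456 (range 0.4 to 0.509, SD, n = 5) in footprints. Laminin α2 relative to laminin γ1, partners in the main laminin of adult muscle, was 0.872 ± 0.0799 (range 0.777 to 0.965, SD, n = 5) in RNA and 0.53 ± 0.0335 (range 0.491 to 0.57, SD, n = 5) in footprints. Nid1 over Lamc1 was 0.917 ± 0.151 (range 0.762 to 1.11, SD, n = 5) in RNA and 1.43 ± 0.108 (range 1.28 to 1.56, SD, n = 5) in footprints. Ratios of the laminin β2 chain to β1 overlapped, at 2.60 ± 1.04 (range 1.29 to 3.83, SD, n = 5) in RNA and 2.52 ± 0.222 (range 2.24 to 2.78, SD, n = 5) in footprints. The ratios differed between assays in 5 of 7 pairs beyond the range of the vehicle libraries. Lamc1 and Col6a1 each enter more than 1 pair, so the pairs are not independent. Of all genes, 37.2% were called higher and 38% lower in footprints relative to RNA. Ratios of other gene pairs were not computed, so whether such differences are particular to these pairs was not tested.

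**Figure D2:**
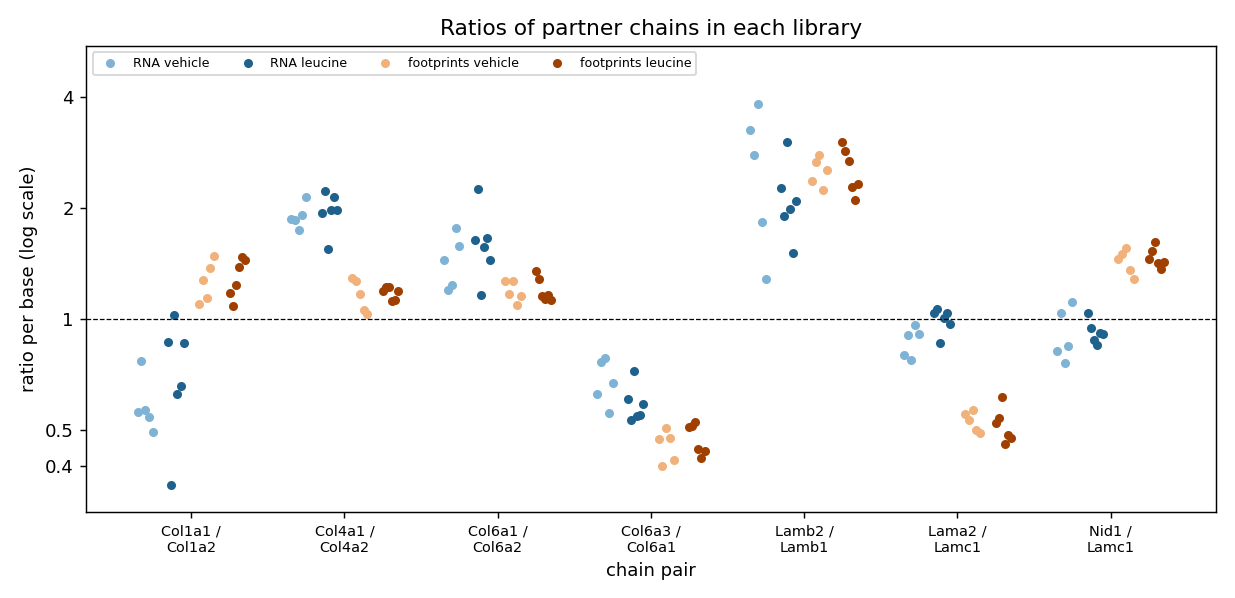
Ratios of partner chains, and of Lamb2 over Lamb1 and Nid1 over Lamc1, in each library on a log axis. They are per base of transcript for RNA (blue) and per base of coding sequence for footprints (orange). Each library is 1 point, and a dashed line marks equality. Vehicle footprint ratios lie above vehicle RNA for Col1a1 over Col1a2 and Nid1 over Lamc1, and below it for Col4a1 over Col4a2, Col6a3 over Col6a1 and Lama2 over Lamc1.

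By level per kilobase of transcript in vehicle footprints, the leading members were Dcn, Gsn, Col1a1, Col1a2, Sparc and Col3a1, in that order. In RNA the order was Gsn, Dcn, Col3a1, Sparc, Col1a2 and Col1a1. On this measure Col1a1 moved from the sixth place to the third. Its level per kilobase of transcript moved from the 90.7 percentile of all genes in RNA to the 99.4 percentile in footprints. Fn1 moved from the 60.5 percentile to the 93.5. Transcript length was used for footprints too, although they fall on coding sequence. By the authors' transcript lengths Col1a1 was 92.8% coding and Sparc 39.4%. Ranks per kilobase of coding sequence were not computed and may differ.

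The members also varied more between libraries of a group than other genes did. The SD of log2 CPM within treatment groups, with sets A and B together, had a median of 0.38 over members and 0.19 over all genes in RNA, and of 0.22 and 0.16 in footprints. Col1a1 had an SD of 0.93 in RNA, at the 99.4 percentile, while Col4a1 (0.20) and Lama2 (0.20) lay near the middle of all genes. Many of the values, but not all, rose and fell together. With treatment and set means removed, Col6a3 correlated with the mean of the members at r = 0.98 and Col5a1 at r = 0.97 over the 11 RNA libraries. Lamb1 (0.09), Timp3 (0.04) and Lamb2 (-0.09) lay near 0, and Timp4 (-0.71) and Lama5 (-0.54) ran against it. All of these genes are members of the mean they are compared with. Among genes outside the list the nearest in RNA were Rrbp1 (r = 0.99), Lox (0.97), Igfbp7 (0.97), Myof (0.95), Fndc1 (0.95), Dhx15 (0.95), Vcan (0.95), Tubb5 (0.94), Shc1 (0.94) and Serping1 (0.94). In the 11 footprint libraries they were Snord32a (0.94), Notch2 (0.94), Rnu12 (0.93), Fkbp9 (0.93), Dennd4a (0.92), Ltbp1 (0.92), Snora31 (0.92), Fndc1 (0.92), Cyth3 (0.91) and Sh3d19 (0.91). Snord32a, Rnu12 and Snora31 are small noncoding RNAs, so their counts in these libraries are not a measure of translation. Fndc1 was on both lists. These libraries share depth and normalisation, and the correlations are a description.

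The leucine comparison asks which mRNAs are translated more or less after the dose. No matrix gene changed in RNA at an adjusted p under 0.05 in edgeR, where 0% of all genes did and 163 (2.69%) had an unadjusted p under 0.05. DESeq2 also called 0. Of the 47 members 22 had a negative change (all genes 50.6%), and the median log2 change was 0.01. The ranges of the groups did not separate for any member in RNA, while 0.132% of all genes lay wholly above vehicle and 0.0661% wholly below.

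Footprint changes of the matrix genes after leucine were mostly negative, but none passed the test. Of the 47 members 40 had a negative change, against 53.8% of all genes, and their median log2 change was -0.14 against -0.01. Many members rise and fall together, so the 40 are not separate results. The SD of the members' median between footprint libraries of a group was 0.13. The members' median centred log2 CPM ran from -0.10 to 0.26 in vehicle footprint libraries and from -0.13 to 0.19 in leucine ones, which overlapped. None was called, while 42 genes (0.694%) of the table were called higher and 4 (0.0661%) lower, 46 (0.76%) in all. That total rested on single libraries: it was 0 on leaving out any vehicle library or leucine A1, A2, B1 or B2, 98 without leucine A3 and 67 without leucine B3, and the members called stayed at 0 in each case. Unadjusted p was under 0.05 for 5 members, Dcn, Timp2, Col1a2, Mfap5 and Mmp2, beside 12.1% of all genes. That count ran from 0, without vehicle A3 or leucine A1, to 12, without leucine A3, on leaving out 1 library, and it was 11 without vehicle A1. No member had leucine footprints wholly below or above vehicle, where 0.743% of all genes lay wholly below and 1.75% wholly above. Without vehicle library A2 the members' median was -0.08, and without vehicle A1 it was -0.19. Marker levels of other cell types overlapped between the groups. Summed CPM of fibroblast markers outside the member list, 13 of 19 listed genes, spanned 1058 to 1402 among vehicle footprint libraries and 1002 to 1200.2 among leucine ones. Those of tendon, 5 of 7 listed genes with the defining transcription factors Scx and Mkx not in the table, spanned 1391 to 3264 and 1419 to 2481, and those of muscle fibres 240991 to 293742 and 264915 to 389930.0. Their part in the matrix values was not tested.

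**Figure D3:**
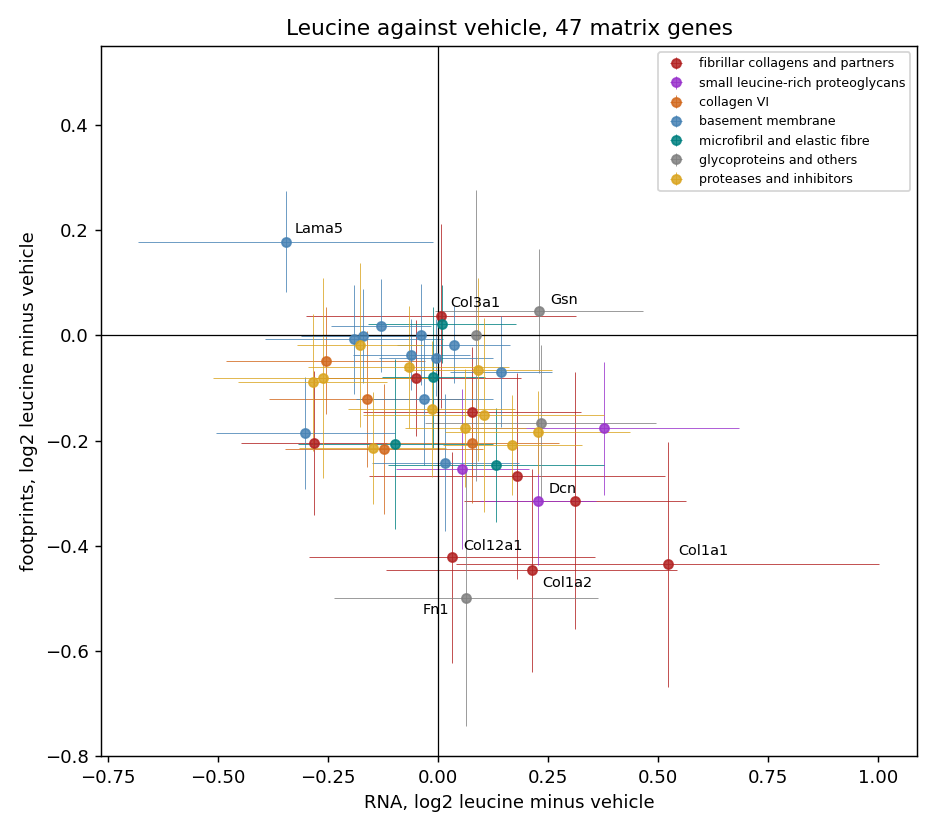
Log2 change after leucine in RNA (horizontal) and in footprints (vertical) for the 47 matrix genes, coloured by role, as edgeR estimates with standard errors. Most points lie below 0 on the vertical axis, from Fn1 at -0.50 to Lama5 at 0.18, and none passed the test in either assay.

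Among fibrillar collagens and partners 8 of 9 had a negative footprint change, with a median of -0.27. Col1a1 RNA stood at 318, 713, 344, 247 and 157 CPM in vehicle, and from 122 to 1050.3 CPM with a median of 451 in leucine. Its footprints stood at 2488, 6429, 3904, 3436 and 6244 CPM in vehicle, and from 2562 to 4345 CPM with a median of 3239 in leucine. The groups overlapped in both assays, and vehicle A2 and B2 held the highest footprint values. The footprint change was -0.44 ± 0.23 (adjusted p = 0.479). Col1a2 RNA stood at 621, 1016, 661, 498 and 346 CPM in vehicle, and from 376 to 1326 CPM with a median of 698 in leucine. Footprints of Col1a2 stood at 2137, 4750.0, 3233, 2349 and 3964 CPM in vehicle, and from 2055 to 2953 CPM with a median of 2293 in leucine. Vehicle A2, A3 and B2 lay above every leucine library, and vehicle A1 and B1 lay among them. The footprint change of Col1a2 was -0.45 ± 0.19 (unadjusted p = 0.0379, adjusted p = 0.374). Col3a1 RNA stood at 472, 1289.6, 692, 725 and 1072 CPM in vehicle, and from 406 to 1402 CPM with a median of 846 in leucine, and its footprints at 918, 1535, 1476, 1364 and 1259 CPM in vehicle, and from 892 to 1908 CPM with a median of 1320.3 in leucine. Its groups overlapped almost wholly, with a footprint change of 0.04 ± 0.17. Col5a3 was among the 3 members with the smallest p in RNA, at -0.28 ± 0.17 (unadjusted p = 0.117, adjusted p = 0.999). Its RNA stood at 41.7, 65.1, 54.8, 42.8 and 55.4 CPM in vehicle, and from 29.6 to 54.3 CPM with a median of 42.9 in leucine. In footprints Col5a3 stood at 78.4, 121, 104, 94.9 and 98.1 CPM in vehicle, and from 59.9 to 101 CPM with a median of 93.1 in leucine, and the groups overlapped in both assays. Col12a1 had a footprint change of -0.42 ± 0.20.

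**Figure D4:**
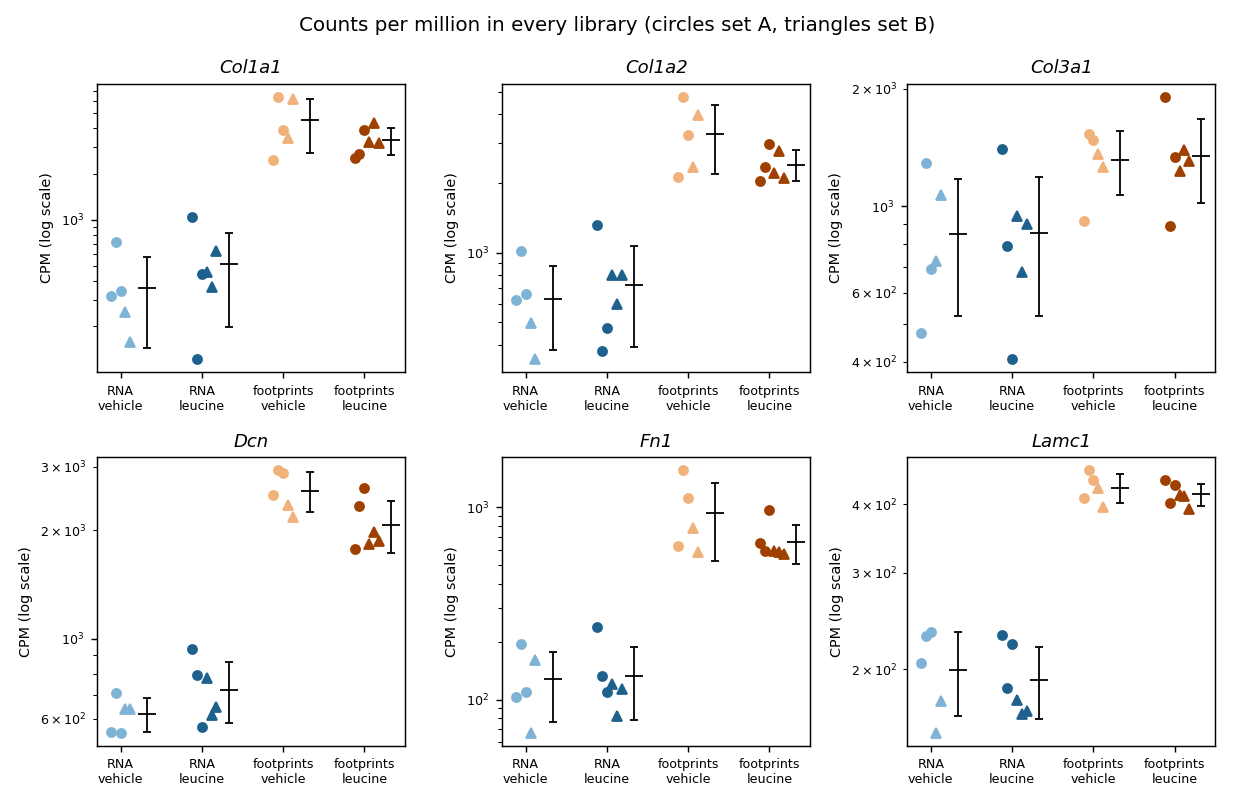
CPM on a log axis in every library for 6 matrix genes in the 4 groups, with circles for set A, triangles for set B, and the mean with its SD beside each group. Footprint values lie above RNA values for Col1a1, Col1a2, Dcn, Fn1 and Lamc1, and vehicle and leucine overlap in every panel within an assay.

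Decorin had the smallest p of all members in both assays. Dcn RNA stood at 552, 708, 549.8, 638 and 639.5 CPM in vehicle, and from 571 to 935 CPM with a median of 712 in leucine, a change of 0.23 ± 0.13 (unadjusted p = 0.11). Its footprints stood at 2506, 2926, 2882, 2353 and 2182 CPM in vehicle, and from 1776 to 2619.7 CPM with a median of 1918 in leucine. Leucine A2 and A3 lay among the vehicle values, and the other leucine libraries lay below every vehicle library. The footprint change was -0.31 ± 0.12, or 1.24-fold lower (unadjusted p = 0.0241, adjusted p = 0.312). For the small leucine-rich proteoglycans together, 3 of 3 changes were negative with a median of -0.25, Lum at -0.25 ± 0.15 and Bgn at -0.18 ± 0.13.

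Fibronectin had a footprint change that rested largely on vehicle A2. Fn1 RNA stood at 104, 195, 110.1, 67.3 and 161 CPM in vehicle, and from 82.5 to 239 CPM with a median of 117 in leucine. In footprints Fn1 stood at 632, 1556, 1122, 780.1 and 583 CPM in vehicle, and from 573 to 968 CPM with a median of 594 in leucine. Vehicle A2 and A3 were high, the other vehicle libraries lay within the leucine range, and leucine A3 stood apart from the other leucine libraries. The change was -0.50 ± 0.24 (adjusted p = 0.442). Without vehicle A2 it was -0.24, beside -0.27 for Col1a1 and -0.28 for Col1a2 without the same library. Sparc RNA stood at 264, 410.1, 275, 384 and 413 CPM in vehicle, and from 202 to 583 CPM with a median of 439 in leucine. Footprints of Sparc stood at 843, 1402, 1170.4, 1283 and 1484 CPM in vehicle, and from 887 to 1339 CPM with a median of 1116 in leucine, with a change of -0.17 ± 0.15 and overlapping groups. Serpinh1 RNA stood at 37.8, 49.3, 43.2, 70.0 and 84.7 CPM in vehicle, and from 27.4 to 84.6 CPM with a median of 64.2 in leucine. Footprints of Serpinh1 stood at 63.4, 78.1, 88.5, 124 and 153 CPM in vehicle, and from 62.7 to 136 CPM with a median of 103 in leucine. In both assays every set B library lay above every set A library, and the footprint change was 0.00 ± 0.28.

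Collagen VI footprints had negative changes in 4 of 4 chains, with a median of -0.16. Col6a1 RNA stood at 110.0, 181, 133, 122 and 132 CPM in vehicle, and from 90.6 to 216 CPM with a median of 143 in leucine, and its footprints at 373, 598, 469, 389 and 433 CPM in vehicle, and from 361 to 444 CPM with a median of 390.1 in leucine. Col6a2 RNA stood at 71.3, 142, 101, 64.6 and 78.3 CPM in vehicle, and from 62.1 to 123 CPM with a median of 80.8 in leucine, and its footprints at 295, 517, 372, 358 and 379 CPM in vehicle, and from 294 to 388 CPM with a median of 325 in leucine. Vehicle A2 was the highest footprint library for both chains, and the footprint changes were -0.20 ± 0.12 and -0.22 ± 0.12 (adjusted p = 0.501 and 0.511). Of the 4 microfibril and elastic-fibre genes 3 had negative changes, with a median of -0.14, and Mfap5, a microfibril glycoprotein, stood at -0.25 ± 0.11 (unadjusted p = 0.0408).

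The basement membrane genes lay close to 0, with 9 of 12 negative and a median of -0.03. Col4a1 RNA stood at 191, 258, 245, 183 and 218 CPM in vehicle, and from 162 to 225 CPM with a median of 206 in leucine, and its footprints at 346, 438, 362, 305 and 374 CPM in vehicle, and from 334 to 382 CPM with a median of 377 in leucine. Col4a2 RNA stood at 99.3, 135, 137, 92.7 and 98.8 CPM in vehicle, and from 70.6 to 115 CPM with a median of 103 in leucine, and its footprints at 274, 352, 315, 294 and 369 CPM in vehicle, and from 279 to 342 CPM with a median of 326 in leucine. The pair that shares promoter bases had footprint changes of 0.02 ± 0.09 and -0.00 ± 0.09, within their errors of 0. Lama2 RNA stood at 209, 266, 232, 188 and 203 CPM in vehicle, and from 208 to 306 CPM with a median of 236 in leucine, and its footprints at 442, 476, 489, 417 and 377 CPM in vehicle, and from 362 to 519 CPM with a median of 406 in leucine. Lamc1, the laminin γ1 chain, had RNA at 205, 229.7, 234, 153 and 175 CPM in vehicle, and from 165 to 231 CPM with a median of 180.1 in leucine. Its footprints stood at 411, 461, 442, 429 and 395 CPM in vehicle, and from 392 to 443 CPM with a median of 414 in leucine, the tightest of the members with an SD of 0.08 on the log2 scale. Nid1 RNA stood at 134, 190.0, 141, 103 and 154 CPM in vehicle, and from 119 to 191 CPM with a median of 129.6 in leucine, and its footprints at 462, 535, 533, 452 and 393 CPM in vehicle, and from 436 to 546 CPM with a median of 467 in leucine. The footprint changes were -0.07 ± 0.11 for Lama2, -0.04 ± 0.07 for Lamc1 and 0.00 ± 0.10 for Nid1, and groups overlapped for each. Lama5 had the highest change of any member, 0.18 ± 0.10 (adjusted p = 0.483), and Col18a1, which carries endostatin, the lowest of this group at -0.24 ± 0.13.

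All 11 genes of the protease and inhibitor group, the ADAMTS-like genes Adamtsl1 and Adamtsl3 included, had negative footprint changes, with a median of -0.14. Mmp2 RNA stood at 44.9, 80.9, 63.4, 56.7 and 67.2 CPM in vehicle, and from 54.5 to 91.5 CPM with a median of 69.9 in leucine. In footprints Mmp2 stood at 244, 304, 298, 268 and 241 CPM in vehicle, and from 209 to 283 CPM with a median of 232 in leucine, a change of -0.21 ± 0.09 (unadjusted p = 0.0465, adjusted p = 0.403). Timp2 RNA stood at 53.7, 92.1, 67.0, 50.6 and 65.8 CPM in vehicle, and from 51.4 to 119.8 CPM with a median of 74.2 in leucine. Footprints of Timp2 stood at 119.8, 154, 137, 143 and 133 CPM in vehicle, and from 111 to 134 CPM with a median of 119 in leucine, a change of -0.18 ± 0.08 (adjusted p = 0.368). Timp4, an inhibitor with high levels in heart and muscle, had RNA at 59.1, 38.6, 56.2, 47.1 and 33.1 CPM in vehicle, and from 28.0 to 49.1 CPM with a median of 37.2 in leucine, a change of -0.29 ± 0.17 (unadjusted p = 0.119). Its footprints stood at 37.7, 40.5, 28.4, 27.5 and 38.6 CPM in vehicle, and from 24.0 to 38.5 CPM with a median of 33.6 in leucine. For each of these genes the groups overlapped in both assays.

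Translational efficiency, the footprint change beside the RNA change in 1 model, gave 0 called members, where 0% of all genes were called by edgeR, 429 (7.09%) had an unadjusted p under 0.05, and DESeq2 called 57 genes with no member among them. Of 47 members 32 had a negative value, against 55.1% of all genes, and the median was -0.10 against -0.02. On leaving out 1 library the negative count ran from 26, without RNA library vehicle A1, to 39, without RNA library vehicle A2, and the median from -0.03 to -0.23 in the same libraries. Dcn was lowest in p at -0.55 ± 0.19 (unadjusted p = 0.00717, adjusted p = 0.415), and no other member had an unadjusted p under 0.05 with all libraries. With the set as a covariate 4 members did, and on leaving out 1 library the count reached 6, without RNA library vehicle A2, and 5, without RNA library leucine A3. Mmp2 followed at -0.39 ± 0.19 and Timp2 at -0.42 ± 0.23. Values for collagen I were larger but had wide errors, -0.97 ± 0.56 for Col1a1 and -0.67 ± 0.40 for Col1a2.

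Other genes of the matrix were read from lists of functional groups. Of 31 measured proteins of the matrix outside the members, 28 had a negative footprint change after leucine with a median of -0.16, and 0 were called. The smallest p belonged to Fndc1 (-0.38 ± 0.13, adjusted p = 0.243), Ecm2 (-0.31 ± 0.12) and Fmod (-0.61 ± 0.24), the last a fibril-binding proteoglycan. Of 18 TGF-beta signalling genes, the pathway best known for inducing matrix genes, 17 had a negative change with a median of -0.15, led by the ligand gene Tgfb2 (-0.35 ± 0.09, adjusted p = 0.0837). Matrix receptors had 13 of 18 negative with a median of -0.10, led by the integrin gene Itgb5 (-0.27 ± 0.09, adjusted p = 0.22). Collagen processing enzymes had 12 of 18 negative with a median of -0.09, and the prolyl hydroxylase subunit P4hb, which is also a general disulphide isomerase, stood at 0.31 ± 0.10 (adjusted p = 0.225). None of these 4 lists held a called gene in RNA, footprints or efficiency. In footprints relative to RNA in vehicle muscle, 37.2% of all genes were called higher and 38% lower. There 29 of 31 other matrix proteins and 14 of 18 processing enzymes were called higher, and 11 of 18 receptors higher and 3 lower. Of 18 TGF-beta signalling genes 6 were called higher and 7 lower, near the shares of all genes.

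Among cell type markers, 12 of 13 fibroblast genes had a negative footprint change (median -0.17), as did 5 of 5 tendon genes (median -0.54). Tnmd is on both of these lists. Fmod, Thbs4 and Tnc of the tendon list and Dpt of the fibroblast list are also counted among the other matrix proteins. Muscle fibre genes had 10 of 12 positive (median 0.20) and smooth muscle and pericyte genes 8 of 9 positive (median 0.14). Endothelial genes had 9 of 12 negative (median -0.04) and macrophage and leukocyte genes 5 of 6 negative (median -0.27). Adipocyte genes had 4 of 4 positive (median 0.92), but these were Fabp4, Lpl, Scd1 and Fasn, and Fabp4 is also on the endothelial list. The other listed adipocyte genes, Adipoq, Plin1, Cidec, Lep, Retn, Cfd and Pparg, were not in the table. Of the Schwann cell list 1 gene was measured, at -0.11, and satellite cell genes had 2 of 3 positive. No gene of these lists was called in footprints. The tendon marker Tnmd stood at -0.54 ± 0.19 (adjusted p = 0.264), and the muscle fibre gene Actn3, a fast-fibre actinin, at 0.78 ± 0.17 (adjusted p = 0.0548).

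The authors' deposited table of footprint results also lists matrix genes absent from the count table. By the same name rule it held 37 such genes, of which 29 had a negative log2 change, with a median of -0.21, and 0 had an FDR under 0.05. Among the 37 genes the lowest FDR in the authors' deposited table was that of Mmp14, a membrane-bound collagenase, at 0.242 with a change of -0.42. Col11a1 stood at -0.58, Col11a2 at -0.64, Fbn2 at -0.56 and Mfap4 at -0.47 in the authors' deposited table. Of 33 such genes in the authors' deposited RNA results, 19 had a negative change and 0 had an FDR under 0.05, where 49.8% of all rows were negative. How many rows of either whole deposited table had an FDR under 0.05 was not counted.

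Sets A and B were compared as well. In RNA 1 member was higher in set B (9.02% of all genes) and 5 were lower (9.8%). In footprints 2 were higher (11.7%) and 11 lower (12.2%). Both higher counts and the lower count in RNA were near or below these shares of 47 genes, and the lower count in footprints moved with single libraries. Serpinh1 was higher in set B in both assays, by 0.81 ± 0.17 in RNA and 0.90 ± 0.09 in footprints (adjusted p = 0.015 and 4.72e-05). Timp3, the matrix-bound inhibitor, was lower in both, by -0.52 ± 0.08 and -0.58 ± 0.07, and so were the laminin genes Lama2 (-0.28 ± 0.08 and -0.28 ± 0.07), Lama5 (-0.82 ± 0.25 and -0.25 ± 0.07) and Lamb2 (-0.65 ± 0.08 and -0.29 ± 0.06). Lamc1 was lower in RNA (-0.38 ± 0.08). In footprints Col15a1 was higher (0.35 ± 0.08), and Fbln2, Col6a3, Lum, Col18a1, Nid1, Col22a1 and Nid2 were lower, from -0.61 ± 0.18 for Col22a1 to -0.23 ± 0.07 for Nid1. The count of members lower in footprints was 7 without vehicle B2 and 6 without leucine B2 or B3, and that in RNA was 3 without vehicle A2, A3 or B1 or leucine B1, B2 or B3. The count higher in RNA was 3 without leucine A1 and 2 without leucine A2. No member passed an adjusted p of 0.05 for the interaction of treatment and set in edgeR, where 0% of all genes passed in either assay, and 110 genes in RNA (1.82%) and 176 in footprints (2.91%) had an unadjusted p under 0.05.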

How the data were processed

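RNA and ribosome footprints of mouse quadriceps were measured in 22 libraries. The submitters' processing notes name Bowtie, edgeR and build mm9. Tool versions, the counting rule and the use of strand are not given there. The authors deposited whole-number counts per gene, and no value in that table lies below 129 counts, so it holds abundant genes. Per the file headers, the authors' 2 tables of edgeR results hold a log2 fold change, a p-value and an FDR per gene and were used only in sentences that name them. Transcript lengths in bases also come from the authors' deposited tables, and coding lengths from GENCODE vM21 by RefSeq accession, for 98.1% of genes. Every sample column of the count table was used, and each library's group was read from its column name.

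Tests used edgeR 4.0.16 (R 4.3.3) on the counts (TMM factors, filterByExpr, robust quasi-likelihood tests, Benjamini-Hochberg adjustment over 6054 genes, threshold 0.05), and the filter removed 0 genes. Log2 changes are leucine minus vehicle, footprints relative to RNA, or set B minus set A, each relative to the other genes, so a change in total RNA or footprints cannot be seen. CPM use TMM-adjusted library sizes. The counting error (Poisson SD) of a value was at most 8.8% of it. The script was tested on simulated data. For 18 members each vehicle library is given, with the range and median of the leucine libraries. Of these, 15 were chosen by role. Col5a3, Timp2 and Timp4 were added because each was among the 3 smallest p in RNA, footprints or efficiency. From each other list up to 3 genes with the smallest footprint p could be named, along with the 10 non-members most correlated with the members' mean per assay. Lama5, Lum, Bgn, Col12a1, Col18a1, Mfap5 and Adamts9, like every member, could be named by role. The members and the lists were chosen with earlier results of these data known. Alternatives were RLE and upper-quartile factors, DESeq2 1.42.0, limma-voom (limma 3.58.1), no filter, the set as a covariate, each set alone, and leaving out each library in turn.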

Additional observations from a re-analysis of the deposited data

Results flagged for a closer look

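Among 104 groups of 5 or 6 values examined (CPM of 18 members, shares of counts and chain ratios), 5 had a library farther from the rest than Dixon's 95% limit allows, and chance alone flags about 1 in 20 groups. Fn1 had 239 CPM in leucine RNA library A1, where the other leucine libraries ran from 82.5 to 133 CPM, and 968 CPM in leucine footprint library A3, where the others ran from 573 to 649 CPM. Col4a1 had 334 CPM in leucine footprint library A2, below 366 to 382 CPM in the others. Col4a2 had 70.6 CPM in leucine RNA library A2, below 102 to 115 CPM in the others. The Col1a1 to Col1a2 ratio was 0.769 in vehicle RNA library A2, above 0.496 to 0.569 in the others.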

How the results depend on the processing

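The 41 matrix genes with more footprints than RNA in vehicle muscle became 40 to 42 under every alternative run, and no matrix gene was called after leucine in RNA, footprints or efficiency under any of them. The number called lower in footprints relative to RNA was 1, and 2 with DESeq2 or with leucine libraries in place of vehicle, and 1 to 2 on leaving out 1 library. The members' median lay 0.91 above that of all genes once the coding share was removed, a step added after the data were seen, as were the leucine libraries and the set A fit of this comparison. Genes called after leucine in footprints numbered 46, and 0 with upper-quartile factors, 253 with DESeq2, 0 within set A, 1 within set B and 0 to 98 on leaving out 1 library. For efficiency DESeq2 called 57 genes. Members higher in set B in RNA numbered 3 with DESeq2 and 1 to 3 on leaving out 1 library, members lower 3 to 6, and members lower in footprints 6 to 14; the cause was not tested. Footprint changes near 0 turned sign: Col4a2 was 0.0039 with RLE factors, 0.0039 with DESeq2, 0.0025 with limma-voom and 0.0105 within set B, Col4a1 was -0.0077 with upper-quartile factors and -0.0636 within set A, and Nid1 was -0.0247 and -0.0080 under those settings. Serpinh1 was -0.0282 with upper-quartile factors, -0.0061 with limma-voom, -0.101 with the set as a covariate, -0.137 within set A and -0.0524 within set B. On leaving out 1 library, Col3a1 ran from -0.0811 to 0.131, Col4a1 from -0.0395 to 0.0921, Col4a2 from -0.0532 to 0.0544, Nid1 from -0.0594 to 0.0549 and Serpinh1 from -0.130 to 0.197. In RNA Col1a2 was -0.0766 within set A and ran from -0.0367 to 0.453 on leaving out 1 library, and Timp4 was 0.0346 within set B. No paired analysis was possible because the count columns carry no replicate number. With 5 or 6 libraries a group, differences of the size seen in footprints for Dcn or Col1a2 did not pass adjustment over 6054 genes.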
